A study of Mus musculus with 8 samples.

Results

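The collagens of bone, tendon and soft tissue were followed through 5 genes, Col1a1, Col1a2, Col3a1, Col5a1 and Col6a1. The probes were those whose names hold the NCBI gene identifier of one of these genes. This gave 1 probe for each gene, so 5 of the 46643 probes on each array, and all 5 were among the 20996 probes kept for testing (detected on at least 3 of the 8 arrays). Total RNA of EGFP-positive cells sorted from the vertebral column of mouse embryos at E12.5 (strain label C57BL/6J;129) was measured on 8 Illumina WG-6 arrays, 4 per genotype. In the HOMO group EGFP replaced Sox9 and the cells came from chimaeric embryos, because embryos without Sox9 die before this stage. In the WT group EGFP followed intact Sox9 through an internal ribosome entry site, and the embryos were heterozygous for that allele. EGFP was under the control of the Sox9 locus in both groups, so only cells that use this locus were sorted, and the RNA of each replicate is that of a sorted population. Sox9 had no named probe, so the targeted gene was not checked.

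Collagens are secreted triple helices that give tissues their tensile strength. Type I collagen, built from the chains of Col1a1 and Col1a2, is the main fibre of bone and tendon, and in cartilage it gives way to type II collagen. Type III collagen, the homotrimer of Col3a1, runs with type I in skin, vessels and loose connective tissue, type V collagen (Col5a1) starts the assembly of type I fibrils, and type VI collagen (Col6a1) forms beaded microfibrils around cells. Sox9 directs sclerotome cells into cartilage, and HOMO was set against WT to find the transcripts that follow its loss.

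The 2 groups differed in overall signal. Mean background-subtracted intensity was 5.21 to 10.5 on the HOMO arrays and 285.2 to 364.1 on the WT arrays, a 41.7-fold difference, and 15.5% to 20.2% of probes were detected on HOMO arrays and 43.7% to 45.7% on WT arrays. A probe counted as detected at a detection value (1 minus the detection p) above 0.95. HOMO replicate 3 was the dimmest array. Signal, chimaeric origin and genotype cannot be told apart in this design, and in sorted bulk samples fewer cells of a type cannot be told apart from less RNA per cell. The eGFP probe was detected on no HOMO array (intensity -5.0 to -1.1) and on each WT array (92.4 to 116.6). Divided by the overall difference, the mean eGFP intensity of WT would be 2.60, below the lowest detected intensity of any HOMO array (7.9 to 9.0), so the sort marker could not be checked in HOMO.

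The collagens fell into 2 sets. Col1a1, Col5a1 and Col6a1 were detected on all 4 HOMO arrays and stayed among the brightest probes of those arrays. Col1a2 and Col3a1 were near or below the detection limit in HOMO, although both were bright on every WT array. Of the 18623 probes detected on all 4 WT arrays, 27.4% were detected on all 4 HOMO arrays, as those 3 collagens were, and 51.1% on none, as Col3a1 was. The intensity of each of the 5 probes was lower throughout the HOMO group, with no overlap with WT, as was the overall signal. Each gene was therefore also described by its rank within the array, as the percent of probes at or below it, which does not depend on a scaling between arrays. Ranks still carry the difference in signal, as fewer probes were detected on HOMO arrays. Where a probe was undetected its rank lies among background values, and the size of a rank difference is then not a measured change. That holds for Col3a1 on all 4 HOMO arrays and for Col1a2 on HOMO replicates 2 and 3.

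Col1a1 encodes the major chain of type I collagen. Its intensity was 100.1, 82.7, 16.4 and 93.0 on HOMO replicates 1 to 4, and 932.0, 1046.0, 1259.6 and 1290.2 on WT replicates 1 to 4. The percent rank was 98.4, 98.9, 93.3 and 98.5 in HOMO and 92.4, 92.5, 95.2 and 94.6 in WT. Thus 3 of the 4 HOMO arrays ranked Col1a1 above all WT arrays, whereas HOMO replicate 3 lay within the WT range. The mean rank was 97.3 ± 2.67 in HOMO and 93.6 ± 1.45 in WT (SD, n = 4 each), a difference of 3.63 that did not pass an exact permutation test (two-sided p = 0.0857, where 0.0286 is the smallest p that 4 against 4 arrays allow; 0.112 after Benjamini-Hochberg adjustment over the kept probes). Without HOMO replicate 3 the ranks of the groups did not overlap for Col1a1, Col5a1 or Col6a1 (exact permutation test, two-sided p = 0.0286 for each, unadjusted).

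Col1a2 encodes the partner chain of type I collagen. Its intensity was 12.1, 3.8, 1.1 and 8.6 on HOMO replicates 1 to 4, and 1213.1, 1225.8, 954.3 and 1277.1 on WT replicates 1 to 4. It was detected on HOMO replicates 1 and 4 (detection values 0.984 and 0.961) and not on replicates 2 and 3 (0.815 and 0.650), and at a stricter limit of 0.99 it was detected on no HOMO array. The percent rank was 84.9, 68.6, 54.4 and 81.4 in HOMO and 94.0, 93.4, 93.6 and 94.5 in WT. Every HOMO array ranked Col1a2 below every WT array, and the HOMO ranks were spread much more widely. The mean rank was 72.3 ± 13.9 in HOMO and 93.9 ± 0.489 in WT (SD, n = 4 each), a difference of -21.6 (exact permutation test, two-sided p = 0.0286, adjusted p = 0.0409).

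Col3a1 encodes the single chain of type III collagen. Its intensity was 6.9, 2.8, -0.4 and 3.5 on HOMO replicates 1 to 4, and 3205.5, 3752.6, 2654.2 and 3680.1 on WT replicates 1 to 4. It was detected on no HOMO array, with detection values of 0.507 to 0.896, and on all WT arrays. The percent rank was 75.2, 63.8, 42.1 and 66.0 in HOMO and 98.0, 98.1, 97.9 and 98.4 in WT. The groups did not overlap, and the rank was lower in HOMO by far more than the spread between arrays, at 61.8 ± 14.0 in HOMO and 98.1 ± 0.216 in WT (SD, n = 4 each; difference -36.3, exact permutation test, two-sided p = 0.0286, adjusted p = 0.0409). Divided by the overall difference between groups, the mean Col3a1 intensity of WT would be 79.6, and that of Col1a2 28.0, both above the lowest detected intensity of each HOMO array. That division applies a single ratio to every probe. Among the 5098 probes detected on all 8 arrays the fold varied widely (quartiles 8.72 and 51.3). Whether the difference in signal accounts for the values of these genes was not tested. Of the 868 probes detected on all WT arrays with a mean WT intensity at or above that of Col3a1, 9 (1.04%), Col3a1 included, were detected on no HOMO array. Of the 2947 probes at or above the mean WT intensity of Col1a1, 191 (6.48%) were detected on no HOMO array and 2210 (75.0%) on all 4. These shares describe the arrays and were computed after the values of the collagens had been seen.

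Col5a1 encodes the main chain of type V collagen. Its intensity was 290.5, 169.4, 89.8 and 250.4 on HOMO replicates 1 to 4, and 5380.5, 5121.4, 5635.1 and 6408.0 on WT replicates 1 to 4. The percent rank was 99.50, 99.47, 99.19 and 99.49 in HOMO and 98.99, 98.80, 99.20 and 99.20 in WT. HOMO replicate 3 again lay within the WT range and the other HOMO arrays above it, a mean difference of 0.371 (exact permutation test, two-sided p = 0.0857, adjusted p = 0.112).

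Col6a1 encodes a chain of type VI collagen. Its intensity was 134.3, 87.5, 33.0 and 112.3 on HOMO replicates 1 to 4, and 2383.5, 2319.3, 2773.8 and 2991.8 on WT replicates 1 to 4. The percent rank was 98.8, 98.9, 97.7 and 98.8 in HOMO and 97.1, 96.6, 98.0 and 97.9 in WT. The pattern was that of Col1a1 and Col5a1, with 3 HOMO arrays above all WT arrays and replicate 3 within them, and the mean difference was 1.18 (exact permutation test, two-sided p = 0.0857, adjusted p = 0.112). Over all 5 genes, 2 had lower and 0 had higher non-overlapping ranks in HOMO, where 46.2% of all kept probes had lower and 23.6% had higher ones. Without HOMO replicate 3 the counts were 2 lower and 3 higher, beside 48.6% lower and 25.8% higher of the kept probes, so neither count of the collagens stands apart from the array by its number.

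**Figure D1:**
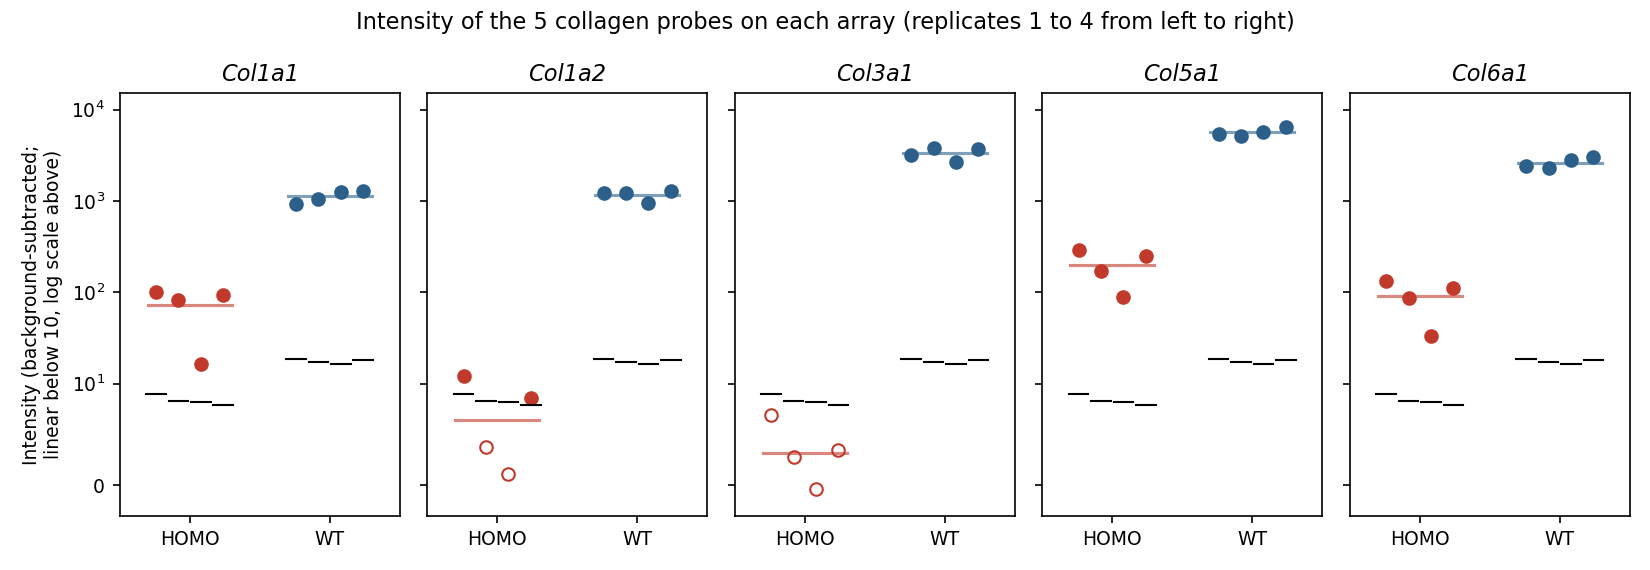
Background-subtracted intensity (y axis, linear below 10 and logarithmic above) of each collagen probe on the HOMO and WT arrays, replicates 1 to 4 from left to right. Filled points are detected and open points undetected, black ticks mark the lowest detected intensity of each array, and coloured lines are group means. Col3a1 is open on all 4 HOMO arrays and Col1a2 on 2 of them, while Col1a1, Col5a1 and Col6a1 lie above the ticks on all arrays.

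**Figure D2:**
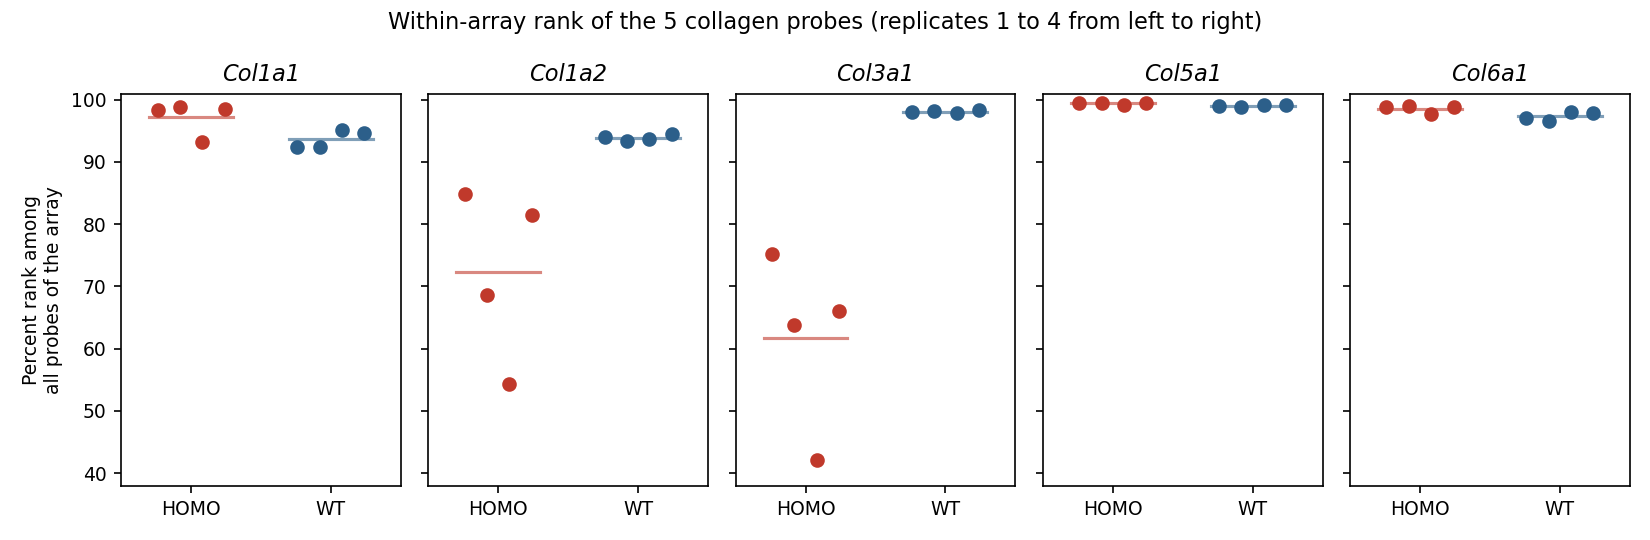
Percent rank of each collagen probe among all probes of its array (y axis, which starts above 0), for HOMO and WT arrays, replicates 1 to 4 from left to right, with group means as lines. Col1a2 and Col3a1 are lower in HOMO with no overlap, and HOMO replicate 3 is the lowest HOMO array for all 5 genes.

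Genotype was tested with limma on quantile-normalized log2 intensities, with p-values adjusted over all kept probes. Col1a2 and Col3a1 were called lower in HOMO, and Col1a1, Col5a1 and Col6a1 were called higher at this scaling. Over all kept probes 48.5% were called lower and 24.8% higher (73.3% in either direction), so a call by itself sets none of the 5 genes apart. Higher calls were more common among probes detected on all 8 arrays, as Col1a1, Col5a1 and Col6a1 were. In a fit restricted to these 5098 probes, 2893 were called higher and 788 lower. The normalized level of Col1a2 was 6.20 ± 1.31 in HOMO and 9.25 ± 0.12 in WT (log2, SD, n = 4 each), a difference of -3.04 (SE 0.57, adjusted p = 0.00140, limma). Col3a1 was at 5.29 ± 0.70 in HOMO and 10.73 ± 0.13 in WT, and since no HOMO array detected it, its fall is given as at least 12.48-fold (adjusted p = 1.48e-06, limma). For that bound the level of Col3a1 on each HOMO array was taken as that of the dimmest detected probe there, 7.09 on average. All fold bounds given here were computed at this scaling only.

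The 3 higher calls were smaller and less certain. Col1a1 was at 10.57 ± 0.99 in HOMO and 9.21 ± 0.35 in WT (difference 1.36, SE 0.46, adjusted p = 0.0261, limma), and its HOMO levels overlapped those of WT. Col5a1 was at 12.10 ± 0.28 in HOMO and 11.49 ± 0.23 in WT (difference 0.61, SE 0.19, adjusted p = 0.0172, limma). Col6a1 was at 11.07 ± 0.38 in HOMO and 10.38 ± 0.30 in WT (difference 0.69, SE 0.23, adjusted p = 0.0247, limma). The HOMO levels of Col5a1 and Col6a1 also overlapped those of WT. Without HOMO replicate 3 the differences were 1.85 for Col1a1 (adjusted p = 1.27e-04), 0.75 for Col5a1 (0.00336) and 0.87 for Col6a1 (0.00336). Without any one of WT replicates 1 and 2 and HOMO replicates 1, 2 and 4, neither Col1a1 nor Col6a1 was called, with differences of 1.12 to 1.26 for Col1a1 and 0.57 to 0.65 for Col6a1.

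The direction of these 3 genes also depended on the scaling. With each array centred on its median, all 5 collagens were called lower in HOMO, with Col1a1 at -3.22, Col5a1 at -4.18 and Col6a1 at -4.10. In the authors' normalized values Col5a1 (-1.43) and Col6a1 (-1.49) were called lower and Col1a1 (-0.72, adjusted p = 0.238) was not called. The median of all kept probes itself shifted by -0.56 in the main scaling, by -1.83 in the authors' values and by -2.26 with median centring. Relative to that shift, Col1a1 was above it by 1.92 in the main scaling and 1.12 in the authors' values, and below it (-0.96) with median centring. Col5a1 and Col6a1 were above it by 1.17 and 1.25 in the main scaling and by 0.41 and 0.35 in the authors' values. With median centring they were below it (-1.92 and -1.84). Col1a2 and Col3a1 lay below the shift, and were called lower, at each of the 7 scalings tried, by -3.80 to -1.58 and -5.31 to -3.44 relative to it.

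**Figure D3:**
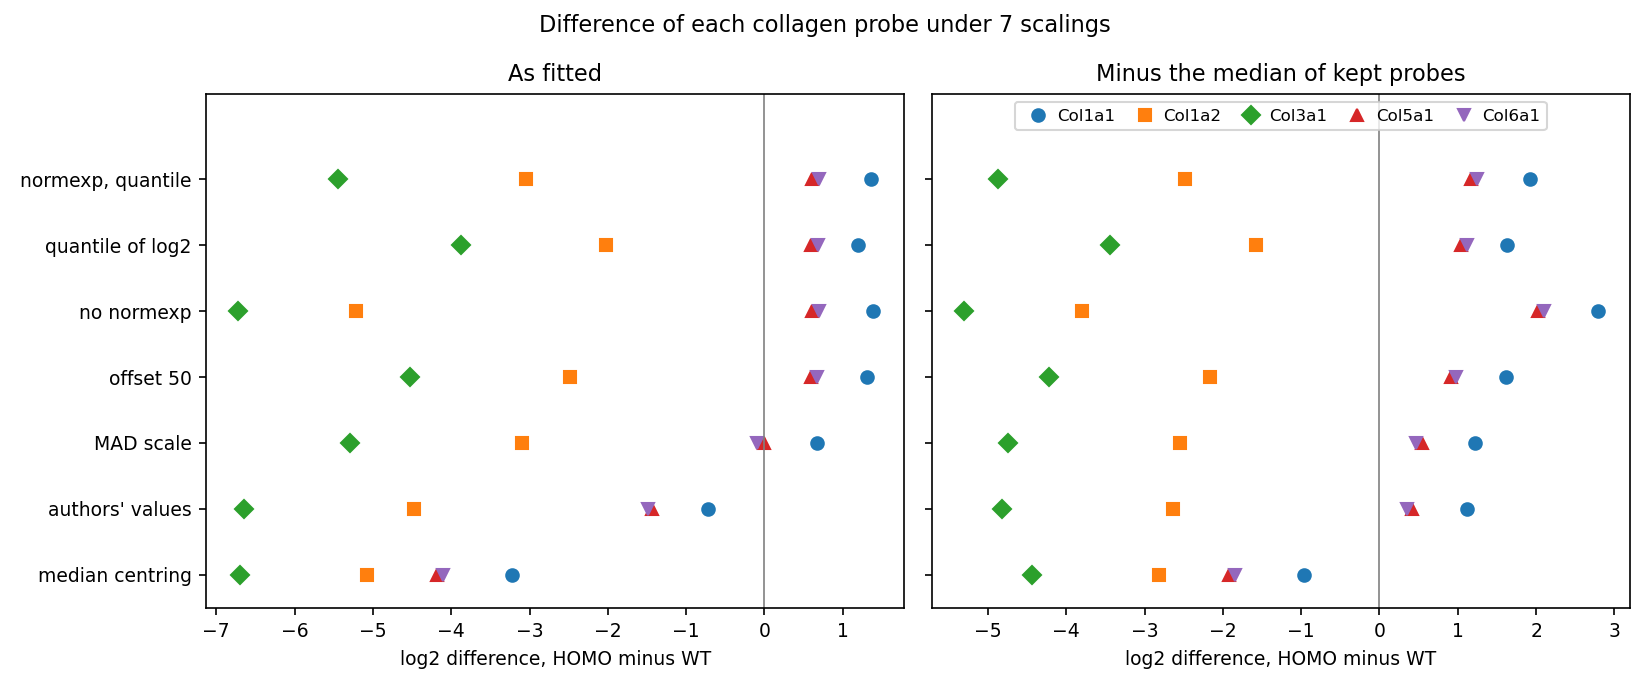
Log2 difference, HOMO minus WT (x axis), of each collagen probe under 7 scalings (rows), as fitted on the left and after subtracting the median difference of all kept probes on the right. Col1a2 and Col3a1 stay left of 0 in both panels, while Col1a1, Col5a1 and Col6a1 change side, to -3.22, -4.18 and -4.10 as fitted with median centring.

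Ratios between probes of the same array need no scaling between arrays. The log2 ratio of Col1a1 to Col1a2, the 2 chains of type I collagen, was 3.05, 3.32, 1.0 and 3.43 on HOMO replicates 1 to 4 and -0.38, -0.23, 0.40 and 0.01 on WT replicates 1 to 4, with intensities raised to at least the lowest detected intensity of the array. Each HOMO array lay above each WT array, HOMO replicate 3 least so, and the mean ratio differed by 2.75 between groups. Because Col1a2 was set to the detection limit on 2 HOMO arrays, this change is a lower estimate. The ratio of Col1a1 to Col3a1 was higher on each HOMO array, by at least 4.39 on average, which is a bound because Col3a1 was at the detection limit on all 4 HOMO arrays. The ratio of Col1a1 to each other kept probe was higher on every HOMO array for 12.3% of them and lower for 36.4%. For Col1a2 the ratio was lower on every HOMO array for 90.7% of them and higher for 1.14%. The same limit was applied to every probe. In HOMO many probes rest on it, as does Col1a2 on 2 arrays. These shares therefore follow in part from the limit and are no background for the changes above.

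Col5a1 and Col6a1 kept nearly the same ratio to each other. Their log2 ratio was 1.11, 0.95, 1.44 and 1.16 on HOMO arrays and 1.17, 1.14, 1.02 and 1.1 on WT arrays, overlapping, with a mean change of 0.06. The ratio of Col1a1 to Col5a1 overlapped as well (mean change 0.71), and that of Col1a1 to Col6a1 was higher on each HOMO array by a narrow margin (mean change 0.77, HOMO replicate 3 at -1.01 and the highest WT array at -1.14). Of the 10 pairs, 8 did not overlap, but 7 of these 8 involve Col1a2 or Col3a1, whose HOMO values rest on the detection limit on 2 and all 4 arrays. For Col1a2 to Col3a1 both genes were at that limit on HOMO replicates 2 and 3, so their ratio was not measured there. Without a scaling, the intensity of Col1a1 was 15.5-fold lower in HOMO, that of Col5a1 28.2-fold and that of Col6a1 28.5-fold, where the median of the 5098 probes detected on all 8 arrays was 29.3-fold. Col5a1 and Col6a1 therefore sat at the middle of these probes (48.5th and 49.0th percentile) and Col1a1 at the 32.4th.

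**Figure D4:**
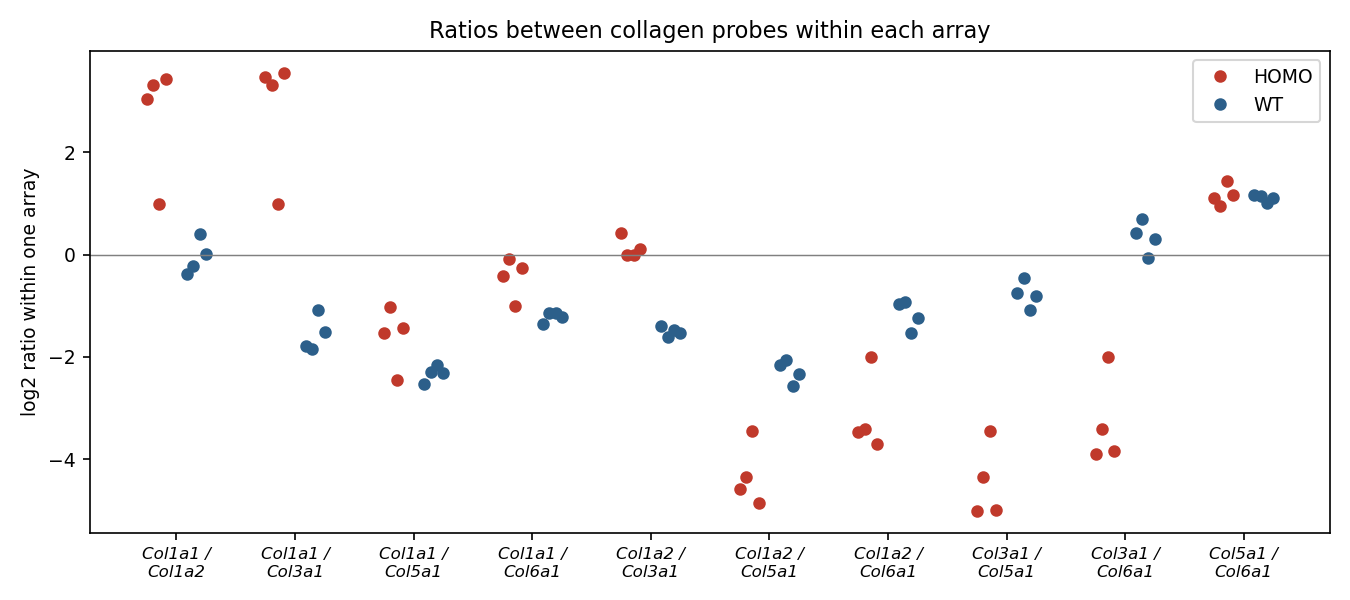
Log2 ratio within each array (y axis) for the 10 pairs of collagen probes, HOMO and WT arrays side by side, with intensities raised to the lowest detected intensity of the array. The groups overlap only for Col1a1 to Col5a1 and for Col5a1 to Col6a1, and HOMO ratios with Col3a1, and with Col1a2 on replicates 2 and 3, rest on that lowest detected intensity.

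The promoters of Col1a2 and Col3a1 are shown because both genes were called lower in HOMO, as were 48.5% of all kept probes. Sequences are from RefSeq on GRCm38.p6 and run from 250 bases before to 50 after the start site; entries for 4 of the 5 genes were matched, Col1a2, Col3a1, Col5a1 and Col6a1. Both strands were searched for AACAAT and ACAAAG, core forms of the site bound by Sox proteins, for CCAAT, the site of the NF-Y factor known on type I collagen promoters, and for TATAAA. The capitals mark the motif, read on the strand of the gene, in windows of 30 bases. The Col1a2 windows are chr6:4505497-4505526 and chr6:4505606-4505635 (plus strand), the second with CCAAT on the opposite strand at the start site. The Col3a1 windows are chr1:45311330-45311359, chr1:45311350-45311379 and chr1:45311409-45311438 (plus strand).
Col1a2 CCAAT: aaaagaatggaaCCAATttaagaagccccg
Col1a2 CCAAT opposite strand: cctagccctcccATTGGtggagacgttttt
Col3a1 AACAAT: taaaaacacacaAACAATtgttgtaggcta
Col3a1 ACAAAG: ttgtaggctatcACAAAGcacattcctatg
Col3a1 TATAAA: actaatgcatgtTATAAAcatatgcatagg

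The AACAAT of Col3a1 overlaps a second AACAAT on the opposite strand. None of the 4 motifs was found in the windows of Col5a1 and Col6a1. Of all 32851 promoters of the same length, 10.7% held AACAAT, 18.7% ACAAAG, 13.6% TATAAA and 37.4% CCAAT. The matches are a description of these letters and not of binding.

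Other collagen genes were mostly lower or not called. Of the 22 with a named probe, 16 were kept, each by its probe with the highest mean level, and 7 were called lower and 2 higher, with a median log2 difference of -0.82. Among the 4890 genes with a named kept probe, 48.7% passed as lower and 23.1% as higher, and the median was -0.62. The lower calls included 3 of the 4 kept cartilage collagens, Col2a1, Col9a1 and Col9a2, while Col11a1, a type XI chain detected on no HOMO array and 3 WT arrays, was not called (fitted difference 0.46, adjusted p = 0.385, limma). Col9a2, a chain of the type IX collagen that coats type II fibrils, was at least 5.15-fold lower (adjusted p = 4.35e-07, limma), with a mean intensity of -0.55 in HOMO and 1359 in WT, and Col2a1, the type II chain of cartilage fibrils, differed by -2.06 (SE 0.30, adjusted p = 2.91e-04), with a mean intensity of 41.2 in HOMO and 8135 in WT. The fibrillar collagen genes Col27a1 and Col24a1 were detected on no HOMO array and were at least 1.23-fold and at least 1.20-fold lower in the main scaling. Their mean WT intensities were 296.0 and 291.3. Divided by the overall difference of 41.7-fold, both would lie below the lowest detected intensity of any HOMO array (7.9 to 9.0). Their non-detection therefore cannot be told apart from the difference in signal. Col9a2, Col2a1, Col27a1 and Col24a1 were each lower at all 7 scalings.

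Col6a3, a partner chain of Col6a1 in type VI collagen, followed it. Its difference was 0.52 (SE 0.20, adjusted p = 0.0422, limma) and its mean intensity 91.3 in HOMO and 2993 in WT, and like Col6a1 it was lower with the MAD scaling (-0.25), in the authors' values (-1.64) and with median centring (-4.26). The other higher call was Col13a1, a membrane collagen, at 2.32 (SE 0.43, adjusted p = 0.00136), which was detected on 2 HOMO arrays and 1 WT array and differed by -0.04 without normexp. Both are named here as the only higher calls, after their values were seen.

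**Figure D5:**
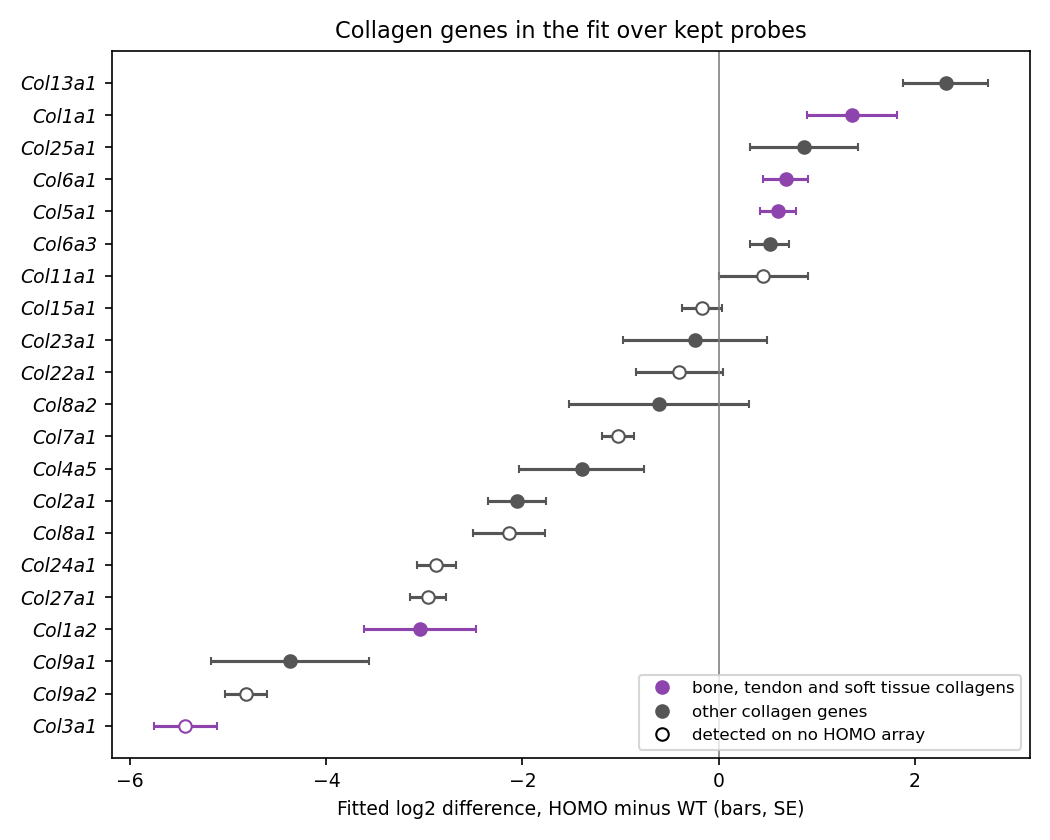
Fitted log2 difference, HOMO minus WT (x axis, bars are SE), of the 5 collagens (purple) and the 16 other kept collagen genes (grey) in the main scaling. Open points were detected on no HOMO array, so their fitted difference is not a measured fold, as for Col3a1 at the bottom.

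Genes that make, bind or control collagen moved in both directions, and their counts are to be read against the 23.1% of all named genes called higher and the 48.7% called lower. Of 11 kept genes for collagen-modifying enzymes and chaperones, 4 were called higher, 3 lower and 4 not called (median -0.01, beside -0.62 over all named genes). Sec23a, a coat protein of the vesicles that carry procollagen out of the endoplasmic reticulum, was at least 2.29-fold lower in HOMO (adjusted p = 1.40e-07, limma). Adamts2, which trims the amino end of procollagens I to III, was called lower without a fold bound (adjusted p = 1.22e-05, limma), undetected in HOMO and with a mean intensity of 134.6 in WT. Bmp1, which trims the carboxyl end, was higher by 1.36 (SE 0.19, adjusted p = 2.17e-04, limma), and Pcolce, the enhancer of that cleavage, by 1.20 (SE 0.18, adjusted p = 3.46e-04, limma). Both were lower in the authors' values and with median centring.

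Of 7 kept genes of fibril-associated matrix, 1 was called higher and 2 lower (median -0.37), beside 23.1% higher and 48.7% lower of all named genes. Vcan, the large proteoglycan of loose matrix, was at least 3.79-fold lower (adjusted p = 5.40e-07, limma). Thbs1, a matrix glycoprotein, was called lower without a fold bound (adjusted p = 1.43e-06). Eln, the elastin gene, was higher by 1.77 (SE 0.20, adjusted p = 5.95e-05), and lower in the authors' values (-0.42) and with median centring (-2.77). Dcn, which binds type I fibrils, did not pass (-1.59, SE 1.21, adjusted p = 0.262).

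Of the 11 collagen receptor genes only 2 were kept, and both were called lower, where 48.7% of all named genes were. Itga11, an integrin chain that binds type I collagen, differed by -1.38 (SE 0.32, adjusted p = 0.00409, limma), and Mrc2, which takes up collagen fragments, was called lower without a fold bound (adjusted p = 0.0169), though it was higher with the MAD scaling (0.15). Of 9 kept regulators of type I collagen, 2 were called higher and 4 lower (median 0.04), close to the 23.1% and 48.7% of all named genes. Larp6, which binds type I collagen messages, was called lower without a fold bound (adjusted p = 6.78e-06, limma), undetected in HOMO. Tgfb3, a growth factor of the TGF-beta family, was higher by 2.04 (SE 0.20, adjusted p = 2.99e-05) and Tgfb2 was lower by 0.93 on the log2 scale (SE 0.17, adjusted p = 0.00133). Scx, the tendon factor known to act on Col1a1, was higher by 1.36 (SE 0.24, adjusted p = 9.00e-04). Tgfb3 and Scx were lower in the authors' values and with median centring.

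Markers of the cell types that use these collagens were few on the array. Calls of markers, here and below, are to be read against the 23.1% of all named genes called higher and the 48.7% called lower. Summed intensities are to be read against the overall 41.7-fold difference in signal. Of 9 osteoblast markers 3 were kept, with a summed intensity of -2.8 to 4.9 in HOMO and 222.2 to 325.2 in WT, and Spp1 and Alpl were detected on no HOMO array. The mean WT intensities were 188.9 for Spp1 and 57.4 for Alpl. Divided by the overall difference of 41.7-fold, both would lie below the lowest detected intensity of any HOMO array (7.9 to 9.0). Their non-detection therefore cannot be told apart from the difference in signal. Runx2, the third kept osteoblast marker, was detected on 2 HOMO arrays and 1 WT array and was not called (1.52, SE 0.77, adjusted p = 0.105, limma; -0.12 without normexp). Scx was the single kept tendon marker of 7 (27.6 to 43.9 in HOMO and 689.8 to 1101.2 in WT). Of 9 fibroblast and loose mesenchyme markers 2 were kept, summing to 3.5 to 64.8 in HOMO and 2587 to 3087 in WT, lowest on HOMO replicate 3. Prrx1 was detected on no HOMO array and was at least 1.47-fold lower in the main scaling. Its mean WT intensity of 358.8, divided by the same overall difference, would lie within the range of those lowest detected intensities. Of 15 cartilage markers 5 were kept, summing to 27.0 to 83.9 in HOMO and 14479 to 21247 in WT, and 4 were called lower, Mia by at least 5.67-fold. The part of these cell types in the collagen differences was not tested.

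Erythroid signal was also lowest on HOMO replicate 3. The 4 kept erythroid markers of 6 summed to 776.0, 297.3, 36.5 and 661.8 on HOMO replicates 1 to 4. On WT replicates 1 to 4 they summed to 7074.0, 3690.7, 2581.6 and 3114.8. HOMO replicate 3, on which Col1a1, Col5a1 and Col6a1 ranked lowest within HOMO, thus had the least. In WT, replicate 3 had the least as well, but Col1a1 ranked highest there. The cartilage, tendon, fibroblast, endothelial and epidermal sums were also lowest on HOMO replicate 3. Within HOMO the neural, osteoblast, pericyte and leukocyte sums were not. Of the erythroid markers Hba-x and Hbb-b1 were called higher, though both were lower in the authors' values and with median centring, and Hbb-b1 without normexp. The 3 kept endothelial markers of 8 summed to 21.2 to 41.8 in HOMO and 176.9 to 709.4 in WT, and Eng (1.66) and Pecam1 (1.504) were called higher, though both were lower without normexp and with median centring. The 6 kept neural markers of 7 summed to 19.5 to 31.5 in HOMO and 1945 to 6560 in WT. Of these, Nes, Nefm and Sox2 were detected on no HOMO array. Snap25 was detected on all 4 HOMO arrays and on 2 WT arrays. Its intensities overlapped, at 16.1 to 19.3 in HOMO and 15.5 to 25.4 in WT, near the detection limit in WT. It was called higher (4.05), and its difference ran from 0.47 with median centring to 4.65 with MAD scaling, above 0 at all 7 scalings. The size of this difference thus depended on the scaling. The 2 kept epidermal markers of 5 summed to 6.8 to 17.9 in HOMO and 264.7 to 618.0 in WT. Krt8 was detected on no HOMO array, while Krt18 was detected on 3 and called higher (1.04), though lower without normexp, in the authors' values and with median centring. Acta2, the single kept pericyte and smooth muscle marker of 6, was detected on no HOMO array (-2.8 to 1.7 in HOMO and 11.9 to 34.7 in WT). The 2 kept leukocyte markers of 6 summed to -5.9 to 3.4 in HOMO and 25.2 to 65.6 in WT. Cd68 was detected on no HOMO array and Lcp1 on 1, and Lcp1 was called higher (1.64), though lower without normexp and with median centring. No skeletal muscle marker had a named probe. Divided by the overall difference, the mean WT intensities of Nes, Sox2, Krt8, Acta2 and Cd68 would lie below the lowest detected intensity of any HOMO array. That of Nefm would lie above it. The non-detection of Nes, Sox2, Krt8, Acta2 and Cd68 therefore cannot be told apart from the difference in signal. The part of the cell types in this paragraph in the collagen differences was not tested.

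The genes with the most similar pattern over the 8 arrays, by Pearson correlation of normalized levels among 4885 other named genes, were Dnajc13 (r = 0.981), Adcy6 (0.980) and Gli2 (0.979) for Col1a1, and Zfp330 (0.999), Man1c1 (0.997) and Rsrc2 (0.997) for Col1a2. For Col3a1 they were Tram1 (0.999), H3f3a (0.998) and Plcl2 (0.998). For Col5a1 they were Farp1 (0.991), Nucb1 (0.979) and Ptgis (0.973), and for Col6a1 Gli2 (0.981), Farp1 (0.975) and Adcy6 (0.965). Gli2, Farp1 and Adcy6 thus each stood among the closest genes of 2 collagens. The points share their arrays and the difference in signal between groups, so these values are descriptions.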

How the data were processed

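Total RNA of sorted cells was labelled with the TargetAmp-Nano kit and hybridised to Illumina WG-6 mouse arrays (whose version differs between the design text and the methods). The authors deposited a background-subtracted intensity per probe and array, made with GenomeStudio (no version given), which can be negative, and a detection p-value column that rises with brightness, read as 1 minus p. They also deposited normalized log2 values, used as an alternative. Recomputed from the intensities, these equal the log2 of each intensity, floored at 1, minus its array's median, apart from a constant for each probe.

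Names came from zero-padded NCBI gene identifiers in the row names of the series' value table, joined to the intensities by equal rows of 8 values. Of 46624 rows, 38432 joined uniquely, and of 16160 zero-padded numbers 60.6% are mouse gene identifiers. Probes detected (value above 0.95) on at least 3 arrays were kept, without 9 control or vector probes, which gave 20996, of which 5602 were named (4890 genes).

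Intensities were corrected by normexp from the detection values (offset 16), quantile-normalized and taken to log2, and tested with limma 3.58.1 in R 4.3.3 (lmFit, eBayes, Benjamini-Hochberg over all kept probes, called at 0.05), HOMO minus WT. Python 3.11.15, numpy 2.4.6, pandas 2.3.3 and matplotlib 3.10.9 did the rest. Ranks were tested by an exact permutation test over samples. For a probe detected on no array of a group the fold is a bound, and none is given where it does not exceed 1. The limma fit was tested on simulated log2 levels. These held few changed probes and no difference in signal between groups, so the test does not cover those features of these data. The number of arrays limits the precision. Alternatives were other scalings, filters and tests, a replicate block and leaving out each array. The methods' MAD scaling was computed over kept probes after its form over all probes had given a spread of 0 on some HOMO arrays. An earlier run quantile-normalized log2 values; the order was changed to the planned one after its collagen values had been seen, and the first order is kept as an alternative.

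The text names all collagen probes, of each gene list the 4 genes with the smallest p, marker genes undetected in a group, and the 3 genes most like each collagen. Some marker genes that the rule takes are given only within their list's sum. Members and lists were chosen with earlier results of these data known. The methods describe 4 biological replicates per genotype.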

Additional observations from a re-analysis of the deposited data

Results flagged for a closer look

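Of 30 values examined, 5 had a gap beyond Dixon's critical share of the range of their group, all for HOMO replicate 3. Chance flags about 1 in 20 groups. The rank and the level of a probe share their intensities, so the 5 values are not all independent. They were the percent ranks of Col1a1 (93.3), Col5a1 (99.19) and Col6a1 (97.7) and the normalized log2 levels of Col1a1 (9.10) and Col5a1 (11.68), all lowest on that array. It was also the array with the lowest mean intensity and the lowest erythroid sum, and several other marker sums were lowest on it too. Why it differed was not tested.

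The NeoR probe, a selection marker outside the comparisons, was detected on all 8 arrays, with a mean intensity of 19.2 on the HOMO arrays (10.2 to 29.0) and 1108 to 1597 on the WT arrays.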

How the results depend on the processing

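Col1a2 and Col3a1 kept their direction and their call in every limma alternative that could test them. The rank difference of Col1a2 did not pass without any one WT array (exact permutation test, p = 0.0571). The Col1a2 ranks of HOMO and WT still did not overlap in these runs. Restricted to probes detected on all 8 arrays, both drop out by construction, leaving 0 lower calls among the collagens and 0 lower non-overlapping ranks. With median centring, 0 collagens were called higher and 5 lower (Col1a1 -3.22, Col5a1 -4.18, Col6a1 -4.10). In the authors' normalized values 0 were higher and 4 lower (Col1a1 -0.72, Col5a1 -1.43, Col6a1 -1.49), and ranks of those values put 5 lower without overlap. Those values hold a constant for each probe, so their ranks within an array do not order probes by brightness. They are not the same measure as the ranks of the intensities. With the methods' MAD scaling 0 were called higher (Col5a1 -0.01, Col6a1 -0.09). Leaving out single arrays gave 1 to 3 higher and 2 lower calls, and 0 to 3 higher non-overlapping ranks, 3 only without HOMO replicate 3. The causes were not tested.

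Replicate numbers did not pair the samples (correlations of same-numbered arrays -0.033 to 0.028, 1 of 4 HOMO arrays correlating best with its own number). With the replicate block 0 collagens were called higher (Col1a1 1.36, adjusted p = 0.0525; Col5a1 0.61, 0.0507; Col6a1 0.69, 0.0695) and 1 other collagen gene, while Col1a2 and Col3a1 stayed called. Col1a1 also lost its call with no filter (0.0561) and in the methods' one-way test (0.0577), which called 13549 probes at the methods' adjusted p and fold thresholds together, 14716 at the adjusted p alone and 13972 at the unadjusted p with the fold threshold.

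Over all probes 5209 were called higher and 10183 lower. Higher calls were 817 with median centring, 3281 in the authors' values, 1854 without normexp, 8507 with no filter and 2893 among probes detected on all 8 arrays. Lower calls were 18433 with median centring and 788 among probes detected on all 8 arrays. Leave-one-out gave 4856 to 5403 higher and 9432 to 10396 lower.

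Other collagen genes called higher were 0 with median centring and 4 with MAD scaling, and 1 in the authors' values, without normexp, with no filter, among probes detected on all 8 arrays, in the methods' one-way test and with array weights. Those called lower were 14 with median centring, 12 in the authors' values, 12 without normexp and 1 among probes detected on all 8 arrays. Leave-one-out gave 1 to 3 higher and 7 to 8 lower. Over the pathway lists 7 genes were called higher and 11 lower; higher calls were 0 with median centring, 4 with MAD scaling and 1 in the authors' values, and lower calls 28, 24 in the authors' values and 3 among probes detected on all 8 arrays, with 7 to 8 higher and 10 to 11 lower on leaving out single arrays. Quantile normalization of log2 values, chosen after seeing the data, changed no collagen call but gave Col1a2 -2.02 and Col3a1 -3.88.

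HOMO signal lay close to background, so a fall below the detection limit is measured only as a bound.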
